A study of Mus musculus with 6 samples.

Results

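The genes described here are the G1 cyclins, kinases and pocket proteins: the D cyclins Ccnd1, Ccnd2 and Ccnd3, the E cyclins Ccne1 and Ccne2, the kinases Cdk4, Cdk6 and Cdk2, and the pocket proteins Rb1 and Rbl1. They were selected by gene name, with earlier results of these data known, and are 10 of the 30315 genes in the deposited table. All 10 were among the 12009 genes whose mean over the 6 libraries reached 1 FPKM, which were the genes tested. RNA-Seq was carried out on primary cultures of tubular epithelial cells (TECs) taken from the kidneys of C57BL/6 mice. Of the 6 libraries, 3 came from cells given siSox9, a small interfering RNA (siRNA) against the transcription factor gene Sox9, and 3 from cells given the control siRNA siNC. The cells of both groups were transfected 12 h before injury and then went through hypoxia/reoxygenation (H/R), which was 6 h in glucose-free medium at 1% oxygen followed by 18 h in complete medium under normal conditions. The comparison asks what a partial knockdown of Sox9 changed in injured TECs. Both groups carry the injury and an siRNA, and no uninjured library was used here. The siSox9 libraries carry 1 siRNA, so effects of that siRNA on other transcripts and effects of Sox9 cannot be told apart. The labels do not give the age of the mice, nor whether the replicates were separate cultures or separate animals, so the p-values measure only the spread between these libraries, which may be technical.

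Cells commit to division in the G1 phase. D cyclins bind CDK4 and CDK6, and E cyclins bind CDK2, and these kinases phosphorylate the pocket proteins RB1 and p107 (the product of Rbl1), which otherwise hold E2F transcription factors in check. Released E2F factors then drive the genes of DNA replication, among them the E cyclin genes and Rbl1 themselves, while the INK4 inhibitors block CDK4 and CDK6 and the CIP/KIP inhibitors block CDK2 complexes. In the kidney, tubular cells are mostly quiescent and re-enter the cell cycle after injury.

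FPKM is a read count scaled to exon length and to library depth. The length is that of all annotated exons of a gene, from 2662 bases for Ccne1 to 13989 for Cdk6 among the members. Where cells use only part of these exons, FPKM understates a gene beside others, so orders of levels between genes carry this limit. The library totals implied by the values were 23893197 to 25725742 reads, at which 1 read on 1 kb of exons is 0.0389 to 0.0419 FPKM. The members were counted with 315 to 23000 reads per library. Sox9, the target, had 8.93, 8.61 and 9.07 FPKM with siSox9 and 25.7, 26.5 and 25.6 FPKM with siNC, or 34.2% of siNC on the means. The mean chi-square of reads per gene was 1.87 to 6.83 between libraries of 1 group, more than the value of 1 for counting noise, so none was a copy of another, and siNC replicate 1 was the library farthest from its group. Across the 12009 genes, limma on log2(FPKM + 1) called 3650 at a Benjamini-Hochberg adjusted p under 0.05, which is 30.4%, with 2118 (17.6%) lower and 1532 (12.8%) higher with siSox9. Without siSox9 replicate 2, 2424 genes were called. Centring the libraries on their medians gave 1765 lower and 1959 higher genes. Differences are siSox9 minus siNC on the log2(FPKM + 1) scale throughout, a scale that understates the change of genes with few FPKM. All 7 markers of tubular epithelium were above the minimum, with summed levels of 3766 to 3923 FPKM with siSox9 and 3603 to 3807 FPKM with siNC, most of it Krt8 and Krt18. Of these markers, Cdh16 was higher with siSox9, at 129.7 beside 100.9 FPKM (difference 0.36, adjusted p = 0.000307), and the other 6 did not pass the test. Of the 4 proximal tubule markers, Lrp2 was at 2.41 FPKM with siSox9 and 2.13 FPKM with siNC (adjusted p = 0.157), and Slc34a1, Aqp1 and Slc5a2 were under the minimum of 1 FPKM. In bulk RNA, fewer cells in a given state and less RNA per cell cannot be told apart.

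Of the 10 members, 7 were lower with siSox9, 0 were higher and 3 did not pass the test. The 7 were Ccne1, Rbl1, Ccne2, Ccnd3, Cdk4, Rb1 and Cdk2, whose means were 60.0% to 85.7% of the siNC mean. Ccnd1, Ccnd2 and Cdk6 did not pass. All 10 differences were below 0, with a median of -0.22, beside -0.01 over all genes tested. The share of members called lower stands beside the background of 17.6% for that direction. For 8 of the 10, every siSox9 library was below every siNC library, which was so for 26.1% of all genes tested. For each of these 8, the exact two-sided permutation test over libraries gave p = 0.1, the smallest that 3 against 3 allow.

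**Figure D1:**
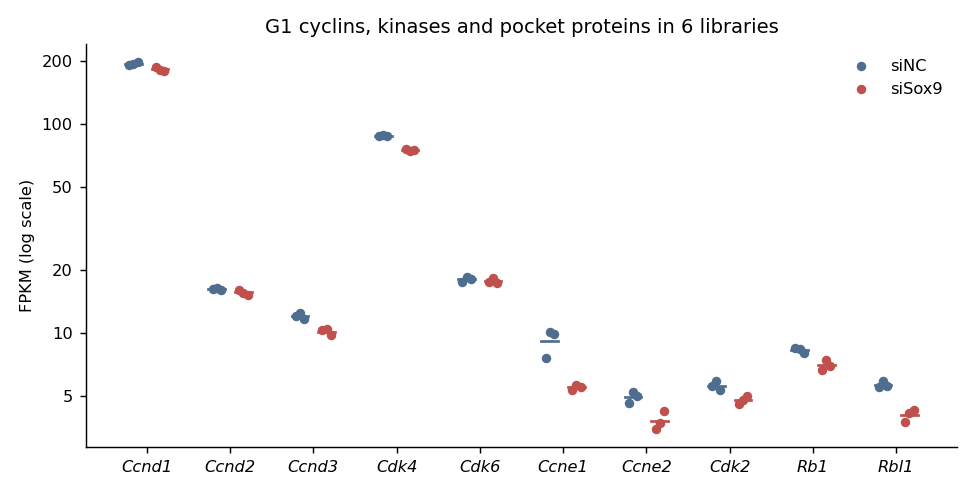
FPKM (log axis) of the 10 members in the 3 siNC libraries (blue) and the 3 siSox9 libraries (red), with 1 point per library and a line at each group's mean. The siSox9 points lie below all siNC points for 8 genes, and the points of Ccnd2 and Cdk6 overlap between the groups.

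The levels of the members spanned a wide range in these cells. Ccnd1 was the most abundant, with a mean of 187.9 FPKM over the 6 libraries, followed by Cdk4 at 81.1, Cdk6 at 17.9, Ccnd2 at 15.9 and Ccnd3 at 11.2 FPKM. This order, and the step down to Rb1 at 7.67 FPKM, held in 6 of 6 libraries with no overlap between the ranges of neighbours. An effect of exon length on the order would be the same in every library, so the libraries cannot show it. The order of the other members was not the same in both groups. With siSox9, Rb1 was at 7.04, Ccne1 at 5.52, Cdk2 at 4.80, Rbl1 at 4.07 and Ccne2 at 3.83 FPKM on the means, and of these neighbours the ranges of Rbl1 and Ccne2 overlapped. With siNC, Ccne1 came first at 9.21, then Rb1 at 8.30, Rbl1 at 5.68, Cdk2 at 5.61 and Ccne2 at 4.97 FPKM, and the ranges overlapped between Ccne1 and Rb1 and between Rbl1 and Cdk2. Ccnd1 made up most of the summed D cyclin FPKM, and both E cyclin genes had fewer FPKM than all 3 D cyclin genes.

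Promoter sequences from RefSeq (GRCm38.p6) are given for 4 members called lower, Ccne1 with the largest fall, Cdk4 with the lowest adjusted p, and Rbl1 and Cdk2 with E2F letters, to show where the letters of known elements lie. The windows run from 250 bases before to 50 after the start of transcription, 5′ to 3′ on the gene's strand, and 6 of the 10 members matched, Ccnd3 with 2 windows. Letters were searched on both strands. They were TTTCGCGC, TTTGGCGC, TTTCCCGC or TTTGCCGC for E2F (in 2.26% of 32851 promoter windows), TTTGAA for the cell cycle homology region CHR (17.9%), ACAATG for SOX factors (12.6%) and ATCAAAG for TCF/LEF factors (3.73%). Capitals mark a match. Rbl1 is on the - strand at chr2:157204485-157204784, Cdk2 on the - strand at chr10:128705002-128705301, Cdk4 on the + strand at chr10:127063285-127063584 and Ccne1 on the - strand at chr7:38107441-38107740.
Rbl1: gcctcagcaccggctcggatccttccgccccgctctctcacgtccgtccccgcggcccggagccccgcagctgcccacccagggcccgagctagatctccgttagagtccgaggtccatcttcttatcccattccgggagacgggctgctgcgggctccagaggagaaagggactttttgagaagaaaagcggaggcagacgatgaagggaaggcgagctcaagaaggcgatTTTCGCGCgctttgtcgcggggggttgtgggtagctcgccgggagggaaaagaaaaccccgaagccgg
Cdk2: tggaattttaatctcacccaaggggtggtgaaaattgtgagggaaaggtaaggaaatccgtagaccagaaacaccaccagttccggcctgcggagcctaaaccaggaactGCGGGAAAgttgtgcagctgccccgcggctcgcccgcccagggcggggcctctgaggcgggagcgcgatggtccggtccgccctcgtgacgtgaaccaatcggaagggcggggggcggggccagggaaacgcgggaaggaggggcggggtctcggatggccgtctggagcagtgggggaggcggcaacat
Cdk4: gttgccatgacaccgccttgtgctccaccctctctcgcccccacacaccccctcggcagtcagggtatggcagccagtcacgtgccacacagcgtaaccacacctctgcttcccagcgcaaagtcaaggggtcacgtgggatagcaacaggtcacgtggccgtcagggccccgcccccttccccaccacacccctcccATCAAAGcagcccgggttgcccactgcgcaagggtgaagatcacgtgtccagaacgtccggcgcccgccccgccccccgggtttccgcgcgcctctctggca
Ccne1: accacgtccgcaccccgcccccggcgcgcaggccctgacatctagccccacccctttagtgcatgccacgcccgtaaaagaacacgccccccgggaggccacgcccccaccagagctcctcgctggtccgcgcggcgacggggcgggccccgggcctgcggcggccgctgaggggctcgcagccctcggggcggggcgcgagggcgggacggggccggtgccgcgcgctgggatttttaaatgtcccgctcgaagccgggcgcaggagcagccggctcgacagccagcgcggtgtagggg

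In the Rbl1 window, TTTCGCGC starts 18 bases before the start of transcription. In the Cdk2 window, TTTCCCGC lies on the other strand and is printed as GCGGGAAA, from 140 bases before the start. In the Cdk4 window, ATCAAAG starts 52 bases before the start. The windows of Ccne1, Ccnd3 and Cdk6 hold none of these letters, and no member's window holds TTTGAA or ACAATG. A match is a description of the letters only, and the members called lower include genes with and without one. The members' windows were 59.3% to 76% G and C, and the shares over all promoter windows were not matched for this.

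Ccne1 and Ccne2 encode cyclins E1 and E2, the partners of CDK2 at the G1/S boundary. Ccne1 (ENSMUSG00000002068, chromosome 7, 38097984 to 38107534, - strand, GRCm38) had 5.36, 5.65 and 5.55 FPKM with siSox9 and 7.60, 10.1 and 9.95 FPKM with siNC. The siSox9 libraries lay close together and below all siNC libraries, of which replicate 1 was the lowest. Its mean fell from 9.21 ± 1.40 (SD, n = 3) to 5.52 ± 0.148 FPKM (SD, n = 3), or 60.0% of siNC. The difference was -0.64 (standard error 0.10, 95% interval -0.86 to -0.41, limma adjusted p = 0.00302), the largest among the 10 members. Without siNC replicate 1 it was -0.76, with a limma adjusted p of 0.00023, and without siNC replicate 2 it was -0.57 (0.0116). With 1 library left out at a time, the call held in 6 of 6 fits, with an adjusted p of up to 0.0140.

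Ccne2 (ENSMUSG00000028212, chromosome 4, 11191351 to 11204779, + strand) had 3.50, 3.72 and 4.26 FPKM with siSox9 and 4.66, 5.25 and 5.01 FPKM with siNC. The groups did not overlap, with the highest siSox9 library closest to the lowest siNC library. The difference was -0.31 (standard error 0.07, adjusted p = 0.0148), and the siSox9 mean was 77.0% of siNC. The call was lost without siSox9 replicate 2 (adjusted p = 0.0532) and without a filter on low values (adjusted p = 0.0538). Of the exon bases of Ccne2, 17.4% also lie in the opposite-strand gene Ints8, whose difference was -0.00 (adjusted p = 0.975). Whether counting used strand is not given in the sources used here.

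Summed over both genes, E cyclin transcripts were at 8.86, 9.37 and 9.81 FPKM with siSox9 and at 12.2, 15.3 and 15.0 FPKM with siNC, or 65.9% of siNC on the means. Within this sum, the share of Ccne1 was 60.5%, 60.3% and 56.6% with siSox9 and 62.0%, 65.8% and 66.5% with siNC. Every siSox9 share was below every siNC share (exact permutation test, p = 0.1), so Ccne1 made up less of the E cyclin transcripts. A share within a library does not change with the scaling between libraries. The shares here and below are made of the same FPKM values as the single genes, so they are not separate evidence.

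Cdk2 (ENSMUSG00000025358, chromosome 10, 128697939 to 128705031, - strand), the kinase partner of the E cyclins, had 4.60, 4.81 and 5.00 FPKM with siSox9 and 5.57, 5.91 and 5.35 FPKM with siNC. The siSox9 libraries were below the siNC libraries by a narrow gap. The difference was -0.19 (standard error 0.05, 95% interval -0.30 to -0.07, adjusted p = 0.0255), and the siSox9 mean was 85.7% of siNC. This call was the least stable of the 7. Over 14 alternatives the adjusted p ranged from 0.00877 to 0.0985 and the call was lost in 7. These were the fits without siSox9 replicate 1 (0.0817), siSox9 replicate 2 (0.0724) or siNC replicate 2 (0.0736), with no filter (0.0676), with the same sum in each library (0.0985), with quantile normalization (0.0697) and with the replicate block (0.0506). The difference stayed below 0 in each, from -0.22 to -0.14.

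The D cyclins sense mitogen signals. Ccnd1 (ENSMUSG00000070348, chromosome 7, 144929931 to 144939925, - strand), which encodes cyclin D1, had 187.1, 181.0 and 177.8 FPKM with siSox9 and 191.7, 193.2 and 196.5 FPKM with siNC. All siSox9 libraries were below all siNC libraries, but by little, at 93.9% of siNC on the means. The difference was -0.09 (standard error 0.03, 95% interval -0.16 to -0.02) and did not pass the test (adjusted p = 0.0613). With limma voom on the recovered reads it passed, with an adjusted p of 0.0437, and over the 14 alternatives the adjusted p reached 0.373. Of its exon bases, 23.4% also lie in the opposite-strand gene Oraov1, which had a difference of 0.13 (adjusted p = 0.0591).

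Ccnd2 (ENSMUSG00000000184, chromosome 6, 127125162 to 127152193, - strand), which encodes cyclin D2, had 16.1, 15.6 and 15.2 FPKM with siSox9 and 16.3, 16.4 and 16.0 FPKM with siNC. The groups overlapped. The difference was -0.05, with a 95% interval of -0.12 to 0.03 and an adjusted p of 0.336.

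Ccnd3 (ENSMUSG00000034165, chromosome 17, 47505051 to 47599691, + strand), which encodes cyclin D3, had 10.4, 10.4 and 9.76 FPKM with siSox9 and 12.1, 12.5 and 11.7 FPKM with siNC. It was the only D cyclin gene called lower in this fit. The groups were clearly apart, and the siSox9 mean was 84.1% of siNC. The difference was -0.23 (standard error 0.04, 95% interval -0.32 to -0.14, adjusted p = 0.00554), and the call held in all 14 alternatives. The opposite-strand gene Bysl, which covers 4.11% of the exon bases of Ccnd3, was higher with siSox9 (0.27, adjusted p = 0.00223).

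Within the summed D cyclin FPKM of each library, Ccnd1 made up 87.6% ± 0.130 (SD, n = 3) with siSox9 and 87.2% ± 0.333 (SD, n = 3) with siNC, and the groups overlapped. Ccnd3 made up 4.86%, 5.03% and 4.81% with siSox9 and 5.51%, 5.63% and 5.23% with siNC, with no overlap. Ccnd2 made up 7.56%, 7.56% and 7.52% with siSox9 and 7.39%, 7.37% and 7.14% with siNC, also with no overlap but in the other direction. The exact permutation test gave p = 0.1 for both Ccnd2 and Ccnd3. The D cyclin sum itself was 93.6% of siNC, at 207.8 ± 5.43 beside 222.1 ± 2.14 FPKM (SD, n = 3 each). E cyclins came to 4.15%, 4.53% and 4.84% of the D cyclin sum with siSox9 and to 5.57%, 6.90% and 6.67% with siNC (exact permutation test, p = 0.1). This ratio restates the larger fall of the E cyclin sum, at 65.9% of siNC beside 93.6%, and is no further result.

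Cdk4 and Cdk6 encode the kinases that D cyclins activate. Cdk4 (ENSMUSG00000006728, chromosome 10, 127063534 to 127067920, + strand) had 75.5, 74.2 and 74.8 FPKM with siSox9 and 87.1, 88.0 and 87.0 FPKM with siNC. The groups were far apart beside the spread within them, and its standard error was the smallest of the 10. The difference was -0.22 (standard error 0.03, 95% interval -0.28 to -0.16), and its adjusted p of 0.00104 was the lowest among the members. The mean fell to 85.7% of siNC, and the call held in all 14 alternatives. The opposite-strand gene Tspan31 shares 19.7% of the exon bases of Cdk4 and had a difference of -0.02 (adjusted p = 0.706).

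Cdk6 (ENSMUSG00000040274, chromosome 5, 3341485 to 3531008, + strand) had 17.6, 18.3 and 17.4 FPKM with siSox9 and 17.6, 18.5 and 18.2 FPKM with siNC, and the groups overlapped. The difference was -0.03, with a 95% interval of -0.11 to 0.05 (adjusted p = 0.530). As a share of Cdk4 plus Cdk6, Cdk4 made up 81.1%, 80.3% and 81.2% with siSox9 and 83.1%, 82.6% and 82.7% with siNC, every siSox9 value being the lower (exact permutation test, p = 0.1).

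Rb1 and Rbl1 encode the pocket proteins RB1 and p107, which bind and restrain E2F factors. Rb1 (ENSMUSG00000022105, chromosome 14, 73183673 to 73325822, - strand) had 6.70, 7.43 and 7.01 FPKM with siSox9 and 8.49, 8.38 and 8.02 FPKM with siNC. The groups did not overlap, and the siSox9 mean was 84.9% of siNC. The difference was -0.21 (standard error 0.05, 95% interval -0.32 to -0.10, adjusted p = 0.0129). The call was lost when the libraries were scaled to the same sum of FPKM (adjusted p = 0.0745). Opposite-strand genes share 14.9% of its exon bases. These were Rcbtb2, with a difference of -0.12 (adjusted p = 0.261), and Lpar6, with a difference of 0.04 (adjusted p = 0.724).

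Rbl1 (ENSMUSG00000027641, chromosome 2, 157145893 to 157204534, - strand) had 3.76, 4.16 and 4.28 FPKM with siSox9 and 5.53, 5.94 and 5.57 FPKM with siNC. The groups were well apart, and the siSox9 mean was 71.6% of siNC. The difference was -0.40 (standard error 0.05, 95% interval -0.52 to -0.28, adjusted p = 0.00182), second in size to Ccne1, and the call held in all 13 alternatives that kept the gene. None of its exon bases lie in another gene. Of the summed FPKM of the pocket protein genes Rb1, Rbl1 and Rbl2, Rbl1 made up 28.7%, 29.5% and 31.2% with siSox9 and 33.3%, 34.4% and 33.9% with siNC, without overlap (exact permutation test, p = 0.1). Rbl2, which encodes p130, the pocket protein of quiescent cells, had a difference of -0.10 that did not pass the test (adjusted p = 0.247).

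**Figure D2:**
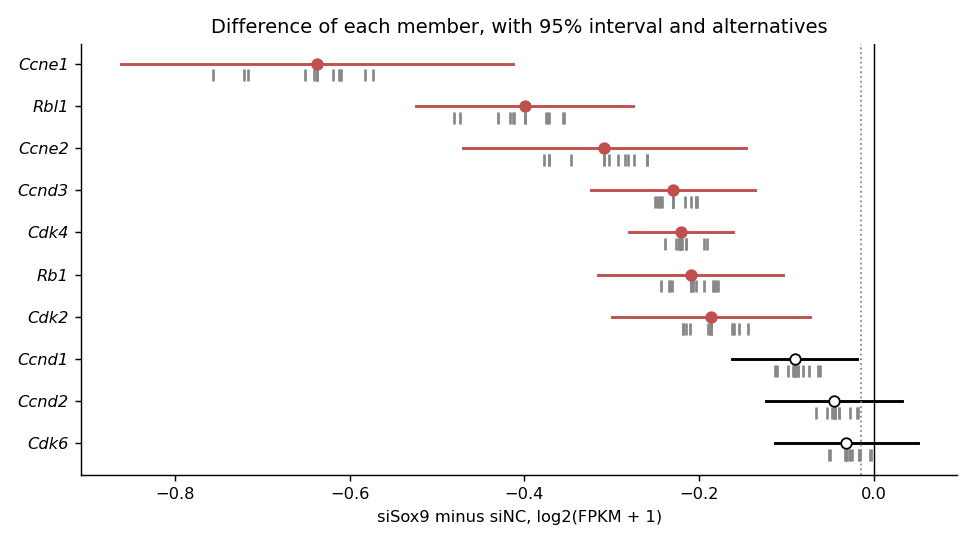
Difference of each member between siSox9 and siNC in log2(FPKM + 1), with limma's 95% interval. Filled red points passed the test (adjusted p under 0.05) and open points did not. Grey ticks give the value under each alternative, and the dotted line is the median of all genes tested, -0.01. No alternative moved a member above 0, and Ccne1 has the widest interval.

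**Figure D3:**
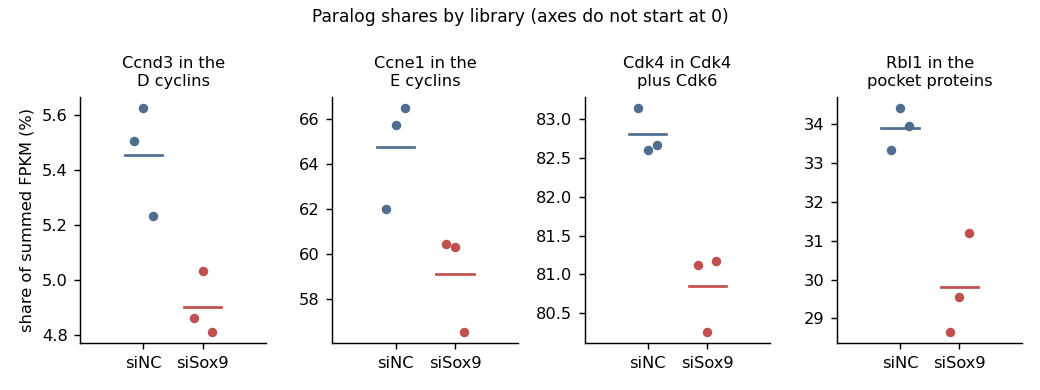
Share of 1 gene in the summed FPKM of its family, in percent, in each siNC (blue) and siSox9 (red) library, with a line at each group's mean. The vertical axes do not start at 0. Ccnd3, Ccne1, Cdk4 and Rbl1 each took a smaller share in all 3 siSox9 libraries than in any siNC library.

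The other genes of the G1/S pathway were read from the same fit, in 6 lists of 71 genes, of which 70 were tested. Of these, 32 were lower with siSox9, 7 were higher and 31 did not pass, with a median of -0.15. The counts of each list stand beside the 17.6% of all genes tested that were lower and the 12.8% that were higher. The counts of the E2F genes, the turnover genes and the D cyclin factors given below were near these shares and are not results about those lists.

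Among the 7 CDK inhibitors, 3 were higher, 2 were lower and 2 did not pass, with a median of 0.02. Cdkn1a, which encodes the CIP/KIP inhibitor p21, had 297.3, 294.2 and 292.0 FPKM with siSox9 and 232.7, 228.3 and 227.9 FPKM with siNC (difference 0.36, adjusted p = 0.000192). It was the most abundant of the inhibitors, and all siSox9 libraries were above all siNC libraries. Cdkn1c, which encodes p57, was higher too, at 6.22 ± 0.488 beside 3.20 ± 0.173 FPKM (SD, n = 3 each, difference 0.78, adjusted p = 0.000234). Cdkn1b, which encodes p27, was lower, at 6.68 ± 0.238 beside 9.51 ± 0.542 FPKM (difference -0.45, adjusted p = 0.000748), so the 3 members of the CIP/KIP family did not change in 1 direction.

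Of the INK4 inhibitors, which bind CDK4 and CDK6, Cdkn2b (p15) was higher, at 51.9 ± 2.90 beside 40.3 ± 0.412 FPKM (SD, n = 3 each, difference 0.36, adjusted p = 0.00128). Cdkn2c (p18) was lower, at 1.56 ± 0.0485 beside 2.63 ± 0.215 FPKM (difference -0.50, adjusted p = 0.00138). Cdkn2a, whose locus encodes p16 and p19Arf, was at 17.2 and 17.0 FPKM (difference 0.02, adjusted p = 0.846), and Cdkn2d (p19) at 2.37 and 3.07 FPKM (difference -0.28, adjusted p = 0.105). Neither passed the test, and Cdkn2d passed without siSox9 replicate 1 (adjusted p = 0.0353). Cdkn1a and Cdkn2b made up most of the family sums, which came to 307.4 ± 2.85 beside 242.3 ± 3.01 FPKM for CIP/KIP and to 73.1 ± 3.25 beside 63.0 ± 1.73 FPKM for INK4. Cdkn1a per unit of summed E cyclins was 33.5, 31.4 and 29.8 with siSox9 and 19.0, 14.9 and 15.2 with siNC. Cdkn1a was higher and the E cyclin sum lower in every siSox9 library, so this ratio could not overlap and is no further result. It also leaves out Cdkn1b, which was lower.

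**Figure D4:**
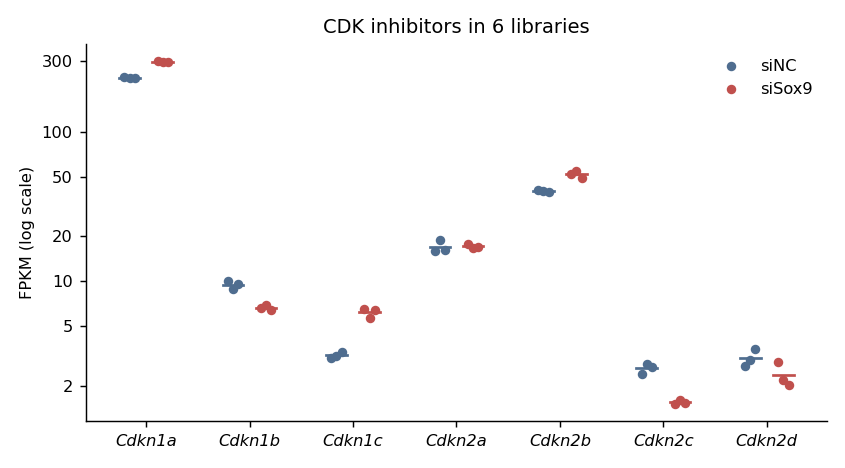
FPKM (log axis) of the 7 CDK inhibitors in the 3 siNC (blue) and 3 siSox9 (red) libraries, with 1 point per library and a line at each group's mean. Cdkn1a, Cdkn1c and Cdkn2b are higher and Cdkn1b and Cdkn2c lower with siSox9, while the points of Cdkn2a and Cdkn2d overlap.

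Of the 16 E2F, DP and MuvB genes, with Rbl2 among them, 4 were lower, 0 were higher and 12 did not pass, with a median of -0.11. E2f8, a repressor E2F of S phase, fell the most, from 3.21 to 1.89 FPKM (difference -0.54, adjusted p = 0.000799). E2f7, its close relative, had a difference of -0.43 (adjusted p = 0.00514). E2f1, an activator, had a difference of -0.31 (adjusted p = 0.0289), and the E2F partner Tfdp1 one of -0.15 (adjusted p = 0.0117). The call of E2f1 was lost in 7 of 13 alternatives, including those without any 1 of the siSox9 libraries or without siNC replicate 3, with adjusted p values up to 0.0956. That of Tfdp1 was lost without siSox9 replicate 2 and with the same sum in each library (up to 0.150). The E2F genes called lower included an activator and repressors.

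Of the 12 genes of CDK activation and cyclin turnover, 3 were lower, 2 were higher and 7 did not pass, with a median of -0.05. Cul1, the cullin scaffold of SCF ubiquitin ligases, fell from 36.5 to 28.3 FPKM (difference -0.36, adjusted p = 0.000799). Skp2, which encodes the SCF receptor for p27, had a difference of -0.34 (adjusted p = 0.00455), and Cks1b, the cofactor of SKP2, one of -0.30 (adjusted p = 0.00134). Ambra1, a receptor for the turnover of D cyclins, was higher by 0.13 (adjusted p = 0.0469), and Cdc37, a chaperone of CDK4, by 0.12 (adjusted p = 0.0150). The call of Ambra1 was lost in 7 of 14 alternatives, including those without siSox9 replicate 1 or 2 or siNC replicate 2 or 3 (up to 0.138). That of Cdc37 was lost in 4 of 14, including those without siSox9 replicate 1 or 2 or siNC replicate 3 (up to 0.0614).

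Of the 17 S phase genes under E2F control, 16 were lower and 0 were higher, with a median of -0.35. The exception was Orc1, a subunit of the origin recognition complex, with a difference of -0.12 (adjusted p = 0.237). Rrm2, which encodes the small subunit of ribonucleotide reductase, had 22.7 ± 1.54 FPKM with siSox9 and 49.5 ± 1.91 FPKM with siNC (SD, n = 3 each, difference -1.09, adjusted p = 6.03e-05). Its partner Rrm1 had a difference of -0.82 (adjusted p = 9.9e-05), Mcm5 of the replicative helicase one of -0.47 (adjusted p = 0.000221), and Pcna, the replication clamp, one of -0.35 (adjusted p = 0.00243). All 16 calls held in each alternative that kept the gene.

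All 5 of the later cyclins and Cdk1 were lower, with a median of -0.70. Ccnb2, a mitotic B cyclin, fell from 12.5 to 6.94 FPKM (difference -0.77, adjusted p = 0.000782). Ccna2, the cyclin of S phase and G2, had a difference of -0.75 (adjusted p = 8.85e-05), Ccnf -0.70 (adjusted p = 0.000457), Cdk1 -0.65 (adjusted p = 0.00134) and Ccnb1 -0.63 (adjusted p = 0.000168). Each of these differences was close to or beyond that of Ccne1, and beyond that of every other member.

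Of the 14 transcription factors that drive D cyclin genes, 13 were tested, Lef1 being under the minimum. Of the 13, 2 were lower, 2 were higher and 9 did not pass, with a median of -0.02. Tcf7, a TCF/LEF factor of the Wnt pathway, was lower, at 2.31 beside 3.72 FPKM (difference -0.52, adjusted p = 0.0096), and Fosl1, an AP-1 subunit, had a difference of -0.22 (adjusted p = 0.0307). Egr1, an immediate early factor, was higher, at 9.73 beside 4.65 FPKM (difference 0.92, adjusted p = 0.000171). Ctnnb1, which encodes beta-catenin, the coactivator of TCF/LEF factors, was higher by 0.14 (adjusted p = 0.0112). The call of Ctnnb1 was lost without siSox9 replicate 2 (adjusted p = 0.0534). That of Fosl1 was lost in 7 of 13 alternatives, including those without any 1 of the siSox9 libraries or without siNC replicate 1 or 3 (up to 0.125).

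**Figure D5:**
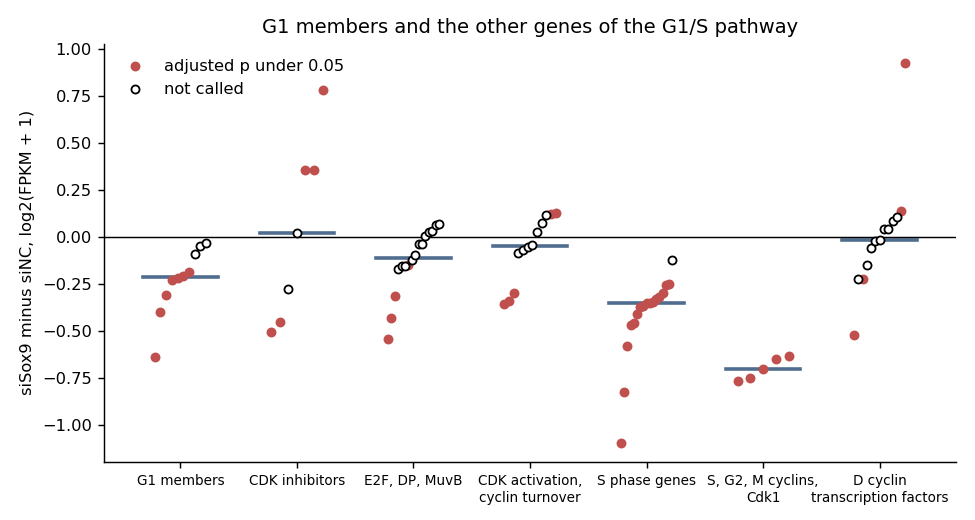
Difference between siSox9 and siNC in log2(FPKM + 1) for the members and for each list of the G1/S pathway, with 1 point per gene and a bar at the median. Filled red points passed the test and open points did not. The S phase genes and the later cyclins lie wholly below 0, at medians of -0.35 and -0.70, while the inhibitors spread from -0.50 to 0.78.

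The tested genes whose profile over the 6 libraries was nearest to that of Cdk4, by the Euclidean distance of centred log2(FPKM + 1) values, were Sec14l1 (distance 0.0149, difference -0.22), Prmt1 (0.0256, -0.22) and Ckap5 (0.0351, -0.21). They were chosen for this likeness, so a difference and a spread within groups like those of Cdk4 follow from the choice.

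The summed markers of some other cell types differed between the groups. For the fibroblast markers the sum was 6.00 to 7.36 FPKM with siSox9 and 7.38 to 8.43 FPKM with siNC. Of these, Col3a1, Pdgfra, Pdgfrb and Dcn were under the minimum. The other, Col1a1, overlapped between the groups and did not pass the test (limma adjusted p = 0.118). The sum of the endothelial markers was 2.76 to 2.99 FPKM with siSox9 and 3.16 to 4.01 FPKM with siNC. Cdh5, the only 1 of 4 above the minimum, overlapped as well and did not pass (adjusted p = 0.449). Every siSox9 library was below every siNC library for 26.1% of all genes tested, so sums apart in this way are no result about cell types. The podocyte marker Podxl was lower with siSox9 (difference -0.57, adjusted p = 0.000158), while Nphs1 was at 0 in all libraries. Leukocyte markers overlapped, at 22.8 to 25.7 and 23.1 to 24.2 FPKM. The part of other cell types in the levels of the members was not tested.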

How the data were processed

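The RNA-Seq data were 3 siSox9 and 3 siNC libraries of mouse primary renal TECs, for which the authors deposited 1 table of FPKM values by gene. Per the labels, their processing notes name HISAT2 2.1.0, Bowtie2 2.2.3, TopHat2 and the build mm9 without a role, whereas the positions in the table are those of GRCm38, with 93.3% of the genes found in GENCODE M21 at the same position. The counting tool is not given in the sources used here. The control columns carry the name siNC. The other columns carry the number of an siRNA and were taken as siSox9, the only other siRNA in the labels. Of the gene names, 25 had been turned into dates and were left so.

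Groups were compared by limma 3.58.1 (R 4.3.3, lmFit and then eBayes with trend) on log2(FPKM + 1), over the genes whose mean reached 1 FPKM, with Benjamini-Hochberg adjustment over all of them and no replicate block, since the study names an unpaired test. Shares, sums and single values were compared with the exact two-sided permutation test over the 20 arrangements of the libraries. Whole reads were recovered from the FPKM steps with the exon lengths of GENCODE M21, for 27947 genes in all 6 libraries within 0.02 reads, all 10 members among them. Read counts and totals cover counting error only. The alternatives were a pseudocount of 0.1, no filter, a minimum of 5 FPKM, the same sum in each library, quantile normalization, centring on the median, the replicate block and leaving out each library, with limma voom on the recovered reads added after the data were seen.

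The named genes are the members, Sox9, every called CDK inhibitor, the called gene of each list with the largest difference in each direction and the 3 profiles nearest to the member with the smallest adjusted p. Other list, marker and overlapping genes were named after their values were seen. The members and lists were chosen with earlier results of these data known. The fit and the recovery of reads were also run on simulated reads, made with the same exon lengths and library depths. The simulated reads had the same dispersion for all genes, so they do not test the spread of the real libraries. Promoters came from RefSeq (GRCm38.p6). The promoters of Ccnd1, Ccnd2, Ccne2 and Rb1, protein sequences and seed matches of the siRNA were not analysed here. The summed level of the podocyte markers is not reported here. Other steps used scipy 1.17.1, pandas 2.3.3, numpy 2.4.6, matplotlib 3.10.9 and Python 3.11.15.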

Additional observations from a re-analysis of the deposited data

How the results depend on the processing

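The count of G1 members called lower was 7 and ranged from 5 to 8 over the alternatives, and 0 were called higher in any. All member differences stayed below 0. Ccnd3, Ccne1, Cdk4 and Rbl1 kept their calls in every alternative that tested them, while Cdk2, Ccne2 and Rb1 lost theirs in those named above. The count of all genes called was 3650 and ranged from 2424 (without siSox9 replicate 2) to 3654 when 1 library was left out. The cause was not tested. With a minimum of 5 FPKM, 8 members were tested and 5 were called. With no filter 5 were called as well. With 1 library left out the difference of Cdkn2a, which was not called, ranged from -0.018 to 0.092. The numbers were not taken as pairs because the study names an unpaired test. The deviations of libraries with the same number were not correlated above 0.1 (0.0649, -0.0504 and 0.00784). With 3 libraries a group, these correlations cannot decide whether the libraries were paired. With the replicate block, 3262 genes and 6 members were called, and Cdk2 had an adjusted p of 0.0506. With 3 libraries a group, exact tests cannot go below p = 0.1. Since the strand setting of the counting is not given in the sources used here, reads of a member and of an opposite-strand gene cannot be told apart.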
